A study of Mus musculus with 23 samples.

Results

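The 69 genes described here encode the heat shock proteins of the HSP110, HSP90, HSP70, chaperonin and small heat shock protein families and their J-domain partners of the DNAJA, DNAJB and DNAJC classes. They were chosen by gene symbol, from all 21892 named genes on the array, with earlier results of these data known. Of 72 symbols that matched the family names, Hspb11, Hspbap1 and Hspbp1 were left out because they are not chaperones of these families. The members were grouped by class and by the compartment in which their proteins work: 8 in mitochondria, 13 in the endoplasmic reticulum (ER), 28 in the cytosol, 9 in the cytosol or nucleus, 5 on vesicles, 2 atypical HSP70 genes and 4 with no compartment assigned. Hspa1b and Hsp90ab1 were not analysed here. The 69 members were read by 105 probes, and 43 of them had 1 probe.

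Heat shock proteins bind unfolded or partly folded proteins and release them on cycles of ATP hydrolysis. HSP70 is driven by J-domain proteins, which deliver clients and trigger its ATPase, and by exchange factors such as HSP110, which let it release them. HSP90 completes the folding of many signalling proteins, among them the steroid receptors, and in mitochondria HSP70 pulls imported chains inward and the HSP60 chaperonin with its HSP10 lid encloses them for folding. Cardiac muscle is rich in small heat shock proteins, which hold on to unfolded proteins without ATP.

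RNA came from ventricles of 23 male mice, 1 mouse per array. MR-Cardio mice are transgenic and overexpress the mineralocorticoid receptor, the receptor for aldosterone, in cardiomyocytes. Ctrl mice carry no transgene. The groups were MR-Cardio mice without treatment (n = 7), MR-Cardio mice given aldosterone (n = 6), Ctrl mice given aldosterone (n = 5) and Ctrl mice without treatment (n = 5). The labels give 7 days as the treatment duration for every group. Neither the promoter driving the transgene nor the age of the mice is stated in the sources used. Each value is the log2 ratio of heart RNA (Cy5) over a common reference (Cy3), pooled RNA from spleen, kidney, liver, heart and brain, so that 0 means the same amount as in the pool and 1 means 2 times as much.

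Nr3c2, the gene of the mineralocorticoid receptor, had ratios of 2.49 to 4.15 in untreated and 2.54 to 4.83 in aldosterone-treated MR-Cardio hearts, against 0.18 to 0.55 in untreated and 0.02 to 0.43 in aldosterone-treated Ctrl hearts, without overlap. The mean of 10 cardiomyocyte marker genes lay between 1.73 and 2.11 in untreated MR-Cardio hearts and between 1.82 and 2.10 in untreated Ctrl hearts. It lay between 1.18 and 1.97 in MR-Cardio hearts with aldosterone, where mouse 1 was the lowest, and between 1.85 and 2.22 in Ctrl hearts with aldosterone. The slope of the added spike-in probes separated the genotypes, at 1.00 to 1.03 on the 13 MR-Cardio arrays and 0.96 to 0.98 on the 10 Ctrl arrays, and all 8 liver marker genes were called lower in MR-Cardio hearts in both treatment states. A difference between the arrays of the genotypes and a difference between the genotypes cannot be told apart in these data, and values after scaling by the spike-in slope are given where they change a call. In bulk tissue, fewer cells of a type and less RNA per cell cannot be told apart either. A gene was called when its limma p-value, adjusted by Benjamini-Hochberg over all named genes, was below 0.05, and p-values refer to the spread between animals.

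Some chaperone genes differed between MR-Cardio and Ctrl hearts, and no member was called for aldosterone within a genotype. Without treatment, 12 of the 69 members were called between MR-Cardio and Ctrl hearts, 2 higher and 10 lower in MR-Cardio. That is 17.4% of the members, and 13.6% of all named genes were called in the same comparison, 5.79% higher and 7.82% lower. With aldosterone in both genotypes, 27 members were called, 11 higher and 16 lower in MR-Cardio. This was 39.1% of the members, where 25.1% of all named genes were called, 10.7% higher and 14.4% lower. The median difference over the members was -0.03 without treatment and -0.03 with aldosterone, beside -0.01 and -0.04 over all named genes. The aldosterone median of the members was -0.12 after scaling by the spike-in slope and -0.08 without the arrays of low spike-in offset (below -0.3). Altogether 30 members were called in at least 1 comparison and 39 in none.

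By compartment, the 8 mitochondrial members had lower point values in MR-Cardio hearts in both comparisons, with a median difference of -0.20 untreated, where 3 of 8 were called, and -0.44 with aldosterone, where 8 of 8 were called. The 13 ER members had medians of -0.01 untreated and 0.10 with aldosterone, with 1 called untreated and 2 with aldosterone. The 28 cytosolic members had medians of 0.04 untreated and 0.06 with aldosterone and were called in both directions, 2 higher and 3 lower untreated, 6 higher and 3 lower with aldosterone. By class, the 7 small heat shock protein members all had higher point values in untreated MR-Cardio hearts, and 1 of them was called. With aldosterone 4 of them had higher and 3 lower point values, and 1 was called. Cryab, a small heat shock protein outside the members, had lower point values in both states. The 4 DNAJA genes all had lower point values untreated, with 1 called, and with aldosterone 3 had lower and 1 a higher point value, with 2 called.

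**Figure D1:**
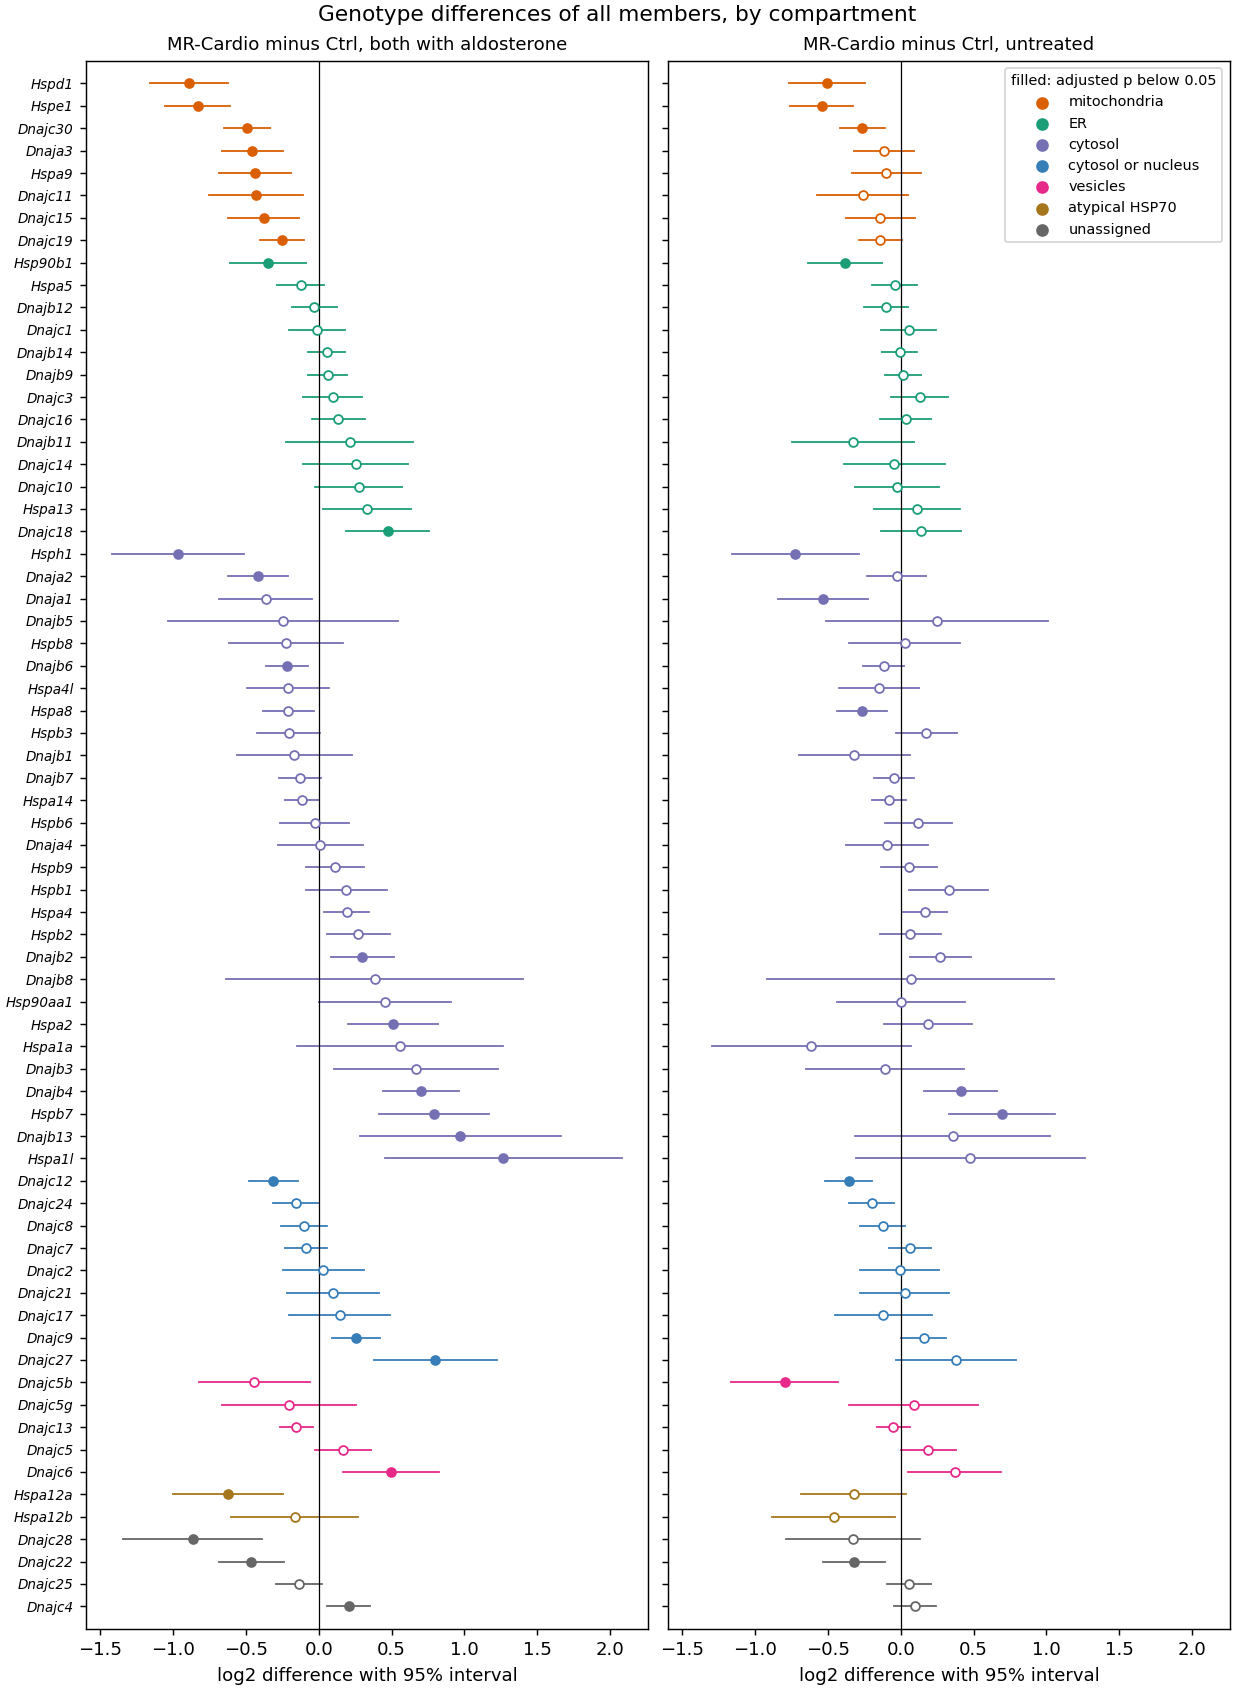
Log2 difference of MR-Cardio minus Ctrl for each of the 69 members, with its 95% interval, in mice with aldosterone (left) and without treatment (right). Rows are grouped by compartment and filled points have an adjusted p below 0.05. The 8 mitochondrial members at the top lie left of 0 in both panels, and the cytosolic members spread to both sides.

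Hspd1 and Hspe1 encode HSP60 and HSP10, the barrel and the lid of the mitochondrial chaperonin. The RefSeq promoter windows of the pair (GRCm38.p6, 250 bases before to 50 after a start) share 285 bases, with Hspe1 at chr1:55087898-55088197 on the plus strand and an Hspd1 window at chr1:55087883-55088182 on the minus strand. The Hspe1 window is shown because both genes were lower in MR-Cardio hearts and the window holds the 3-unit heat shock element, the site bound by heat shock factors. The windows of Hsph1 (chr5:149636287-149636586, minus strand) and Dnajb6 (chr5:29735648-29735947, plus strand) are shown beside it. Among the members with a window, these are the only others with that element. Capitals mark the matches to the 3-unit element, searched as GAA, TTC and GAA or TTC, GAA and TTC with 2 free bases (NN) between neighbouring units, which covers both strands.
Hspe1: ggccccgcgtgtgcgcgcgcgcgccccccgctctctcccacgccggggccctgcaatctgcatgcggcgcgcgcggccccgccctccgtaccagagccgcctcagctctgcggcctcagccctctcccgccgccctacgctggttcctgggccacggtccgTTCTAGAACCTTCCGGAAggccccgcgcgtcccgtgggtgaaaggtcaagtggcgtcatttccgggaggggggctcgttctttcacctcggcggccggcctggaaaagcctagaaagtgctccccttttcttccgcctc
Hsph1: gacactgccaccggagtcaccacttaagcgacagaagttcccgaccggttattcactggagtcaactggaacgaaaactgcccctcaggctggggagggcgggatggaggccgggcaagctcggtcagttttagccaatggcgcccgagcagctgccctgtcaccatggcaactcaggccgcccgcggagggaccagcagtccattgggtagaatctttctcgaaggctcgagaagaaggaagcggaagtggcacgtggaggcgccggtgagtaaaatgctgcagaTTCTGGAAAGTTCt
Dnajb6: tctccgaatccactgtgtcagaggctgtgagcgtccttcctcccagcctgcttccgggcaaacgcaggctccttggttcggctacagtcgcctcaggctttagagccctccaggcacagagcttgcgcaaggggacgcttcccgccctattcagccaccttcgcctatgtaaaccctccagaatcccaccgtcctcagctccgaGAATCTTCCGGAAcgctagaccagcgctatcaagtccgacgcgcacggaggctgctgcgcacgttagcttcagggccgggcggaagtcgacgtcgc
The Hspe1 window holds 2 overlapping matches, at -89 to -77 and -84 to -72 from its start. The element was found in 198 of 32851 windows (0.603%) and in 6 of 73 windows of the 56 members with a window, those of Hspd1, Hspe1, Hsph1 and Dnajb6. These 6 windows do not hold separate sites. Hspd1 and Hspe1 share theirs, and Hsph1 and Dnajb6 each have overlapping windows around the same site. A 2-unit element (GAANNTTC or TTCNNGAA), which lies within every 3-unit match, was found in 15.1% of all windows and in windows of 15 members. The element that corticosteroid receptors bind, searched as GNACA and TGTNC with 3 free bases between them, which reads alike on both strands, was found in 0.475% of all windows and in 0 windows of members. A match describes letters in a window and is not evidence of binding.

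HSP60 RNA was lower in MR-Cardio hearts. Without treatment, the Hspd1 ratio had a lowest value of 0.41, a median of 0.58 and a highest of 1.35 in MR-Cardio mice, against 1.23, 1.39, 1.44, 1.29 and 1.16 in Ctrl mice. The MR-Cardio values overlapped the Ctrl values through 1 mouse, mouse 2 at 1.35, and the other 6 lay below all Ctrl mice. The log2 difference was -0.51 ± 0.13 (SE), 1.42-fold lower in MR-Cardio, with an adjusted p of 0.00967. With aldosterone, the lowest, median and highest Hspd1 ratios were 0.29, 0.45 and 0.56 in MR-Cardio mice, against 1.23, 1.5, 1.32, 1.39 and 1.24 in Ctrl mice, and the groups did not overlap. This difference was -0.89 ± 0.13, 1.85-fold lower in MR-Cardio, with an adjusted p of 4.69e-05.

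HSP10 RNA was lower to a similar size. The Hspe1 ratio had a lowest value of -0.39, a median of -0.27 and a highest of 0.21 in untreated MR-Cardio mice, against 0.32, 0.38, 0.64, 0.32 and 0.25 in untreated Ctrl mice. All 7 MR-Cardio mice lay below all 5 Ctrl mice. The difference was -0.54 ± 0.10, 1.45-fold lower in MR-Cardio, with an adjusted p of 0.00152. With aldosterone, the values ran from -0.57 over a median of -0.42 to -0.22 in MR-Cardio mice, against 0.43, 0.64, 0.43, 0.37 and 0.31 in Ctrl mice. These groups did not overlap either, with a difference of -0.83 ± 0.11, 1.78-fold lower in MR-Cardio, and an adjusted p of 1.44e-05. Each of the 3 Hspe1 probes, taken alone, was called in both comparisons, with differences of -0.60 to -0.48 untreated and -0.89 to -0.74 with aldosterone.

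Untreated MR-Cardio mice were not alike in the chaperonin genes. Mice 3, 4, 5 and 7 had Hspd1 ratios of 0.56, 0.57, 0.41 and 0.58, within or near the range of MR-Cardio mice given aldosterone, and mice 1, 2 and 6 had 1.06, 1.35 and 1.03. Hspe1 split the same mice, with ratios of -0.39, -0.27, -0.35 and -0.38 in mice 3, 4, 5 and 7 and of 0.01, 0.21 and 0.04 in mice 1, 2 and 6. Over all 23 mice, no Hspd1 ratio lay between 0.58 and 1.03. The 10 mice below this gap were 4 untreated MR-Cardio mice and all 6 MR-Cardio mice with aldosterone.

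The same mice differed in other measures. The mean of 23 respiratory chain genes was 1.08, 1.1, 1.25 and 1.26 in mice 3, 4, 5 and 7, and 1.38, 1.47 and 1.41 in mice 1, 2 and 6. The mean of 10 cardiomyocyte markers was 1.82, 1.73, 1.85 and 1.9 in mice 3, 4, 5 and 7, and 2.05, 2.11 and 2.05 in mice 1, 2 and 6. Both split the 7 mice as the chaperonin genes did, and so did the fibroblast markers, in the other direction. The mean of 10 fibroblast marker genes was 3.11, 2.72, 2.07 and 2.60 in untreated MR-Cardio mice 3, 4, 5 and 7, and 1.41, 1.2 and 1.04 in mice 1, 2 and 6. It was 1.52 to 3.42 in MR-Cardio mice with aldosterone, against 1.14 to 1.73 in Ctrl mice with aldosterone and 0.78 to 1.49 in untreated Ctrl mice. Of the 10 genes, 3 (30%) were called higher in MR-Cardio hearts untreated and 4 (40%) with aldosterone, and of 8 macrophage markers 0 were called in either state. Of all named genes, 5.79% were called higher untreated and 10.7% with aldosterone. The spike-in offset was -0.38, -0.50 and -0.34 in mice 3, 4 and 7 and 0.23 in mouse 5, against 0.19, 0.17 and 0.28 in mice 1, 2 and 6. In MR-Cardio mice with aldosterone it ran from -0.49 to 0.21, lowest in mice 4 and 6. The part of these measures in the chaperonin difference was not tested. Without the arrays with an offset below -0.3, the untreated difference was -0.34 with an adjusted p of 0.197 for Hspd1 and -0.40 with an adjusted p of 0.0434 for Hspe1, and this setting left out 3 of the 4 low mice. With only the compared groups in the fit, the untreated adjusted p of Hspd1 was 0.0626.

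**Figure D2:**
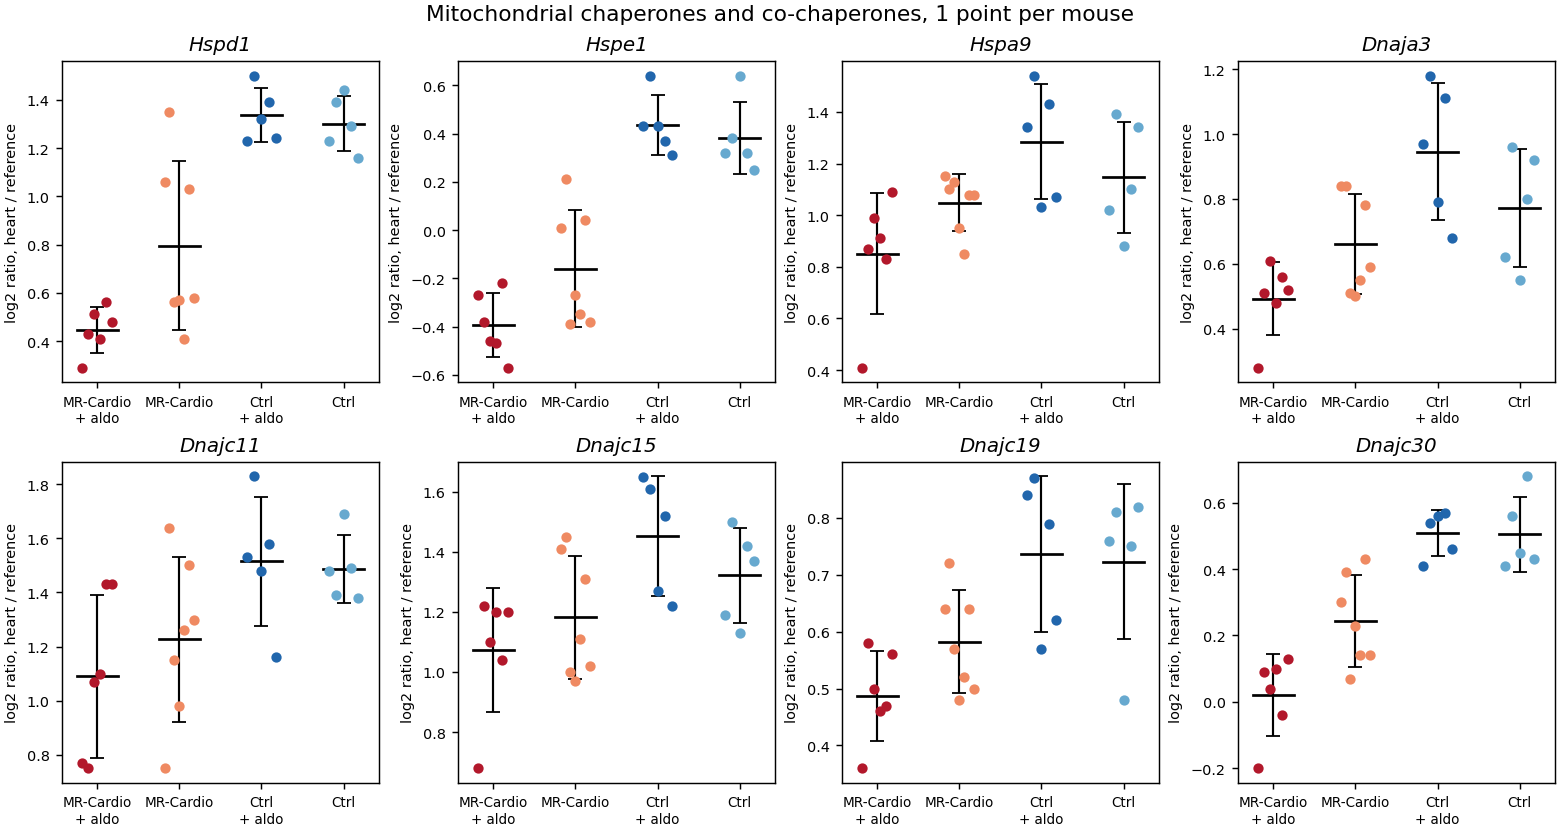
Log2 ratio of heart over reference for the 8 mitochondrial members, 1 point per mouse, with the group mean and SD as bars. From left to right the groups are MR-Cardio with aldosterone (n = 6), MR-Cardio (n = 7), Ctrl with aldosterone (n = 5) and Ctrl (n = 5). Hspd1 and Hspe1 of MR-Cardio mice with aldosterone lie below all Ctrl mice, and untreated MR-Cardio mice split into a low and a high group for Hspd1.

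The other 6 mitochondrial members are HSP70 and J-domain proteins. Hspa9 encodes mortalin, the HSP70 of the matrix. With aldosterone its ratio had a lowest value of 0.41, a median of 0.89 and a highest of 1.09 in MR-Cardio mice, against 1.34, 1.54, 1.03, 1.43 and 1.07 in Ctrl mice, and the groups overlapped only at the highest MR-Cardio mouse. The difference was -0.43 ± 0.12 with an adjusted p of 0.0103, and it was -0.10 ± 0.11 without treatment, which was not called. Dnaja3 encodes a J-domain partner of mortalin. With aldosterone its ratio had a lowest value of 0.28, a median of 0.52 and a highest of 0.61 in MR-Cardio mice, against 0.97, 1.18, 0.79, 1.11 and 0.68 in Ctrl mice, with no overlap. Its difference was -0.45 ± 0.10 with an adjusted p of 0.00237, against -0.11 ± 0.10 without treatment, which was not called.

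Dnajc30, whose protein sits in the inner membrane, was called in both states. Its ratio had a lowest value of -0.20, a median of 0.07 and a highest of 0.13 in MR-Cardio mice with aldosterone, against 0.41, 0.54, 0.56, 0.57 and 0.46 in Ctrl mice with aldosterone. The groups did not overlap, and the difference was -0.49 ± 0.08 with an adjusted p of 9.76e-05. Without treatment the Dnajc30 difference was -0.26 ± 0.07 with an adjusted p of 0.0215, which became 0.0769 without Ctrl mouse 4, 0.0655 with only the compared groups and 0.232 without the arrays of low offset. Dnajc19 and Dnajc15 encode paralogues of the J-domain subunit of the import motor, and Dnajc11 an outer mitochondrial protein. With aldosterone they differed by -0.25 ± 0.07, -0.38 ± 0.12 and -0.43 ± 0.16, with adjusted p-values of 0.0158, 0.0224 and 0.0481, and none was called untreated.

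These last 3 calls were near the threshold. The Dnajc19 call was lost without Ctrl mouse 2 of the aldosterone group (adjusted p = 0.0528). The Dnajc15 call was lost without Ctrl mice 1, 2 or 4 of that group or MR-Cardio mouse 1 (0.0503 to 0.0644), and the Dnajc11 call without any of 8 of the 11 mice (0.0688 to 0.137). Dnajc11 was also not called with the most variable probe (adjusted p = 0.388), after centring (0.0538) or quantile normalization (0.0529), with genes of low mean ratio left out (0.0512) or with only the compared groups (0.0786). All 8 mitochondrial members kept lower point values in each left-out run, and 5 to 8 of them were called, with 5 called without Ctrl mouse 2 of the aldosterone group. MR-Cardio mouse 1 of the aldosterone group had the lowest Hspd1, Hspa9, Dnaja3, Dnajc15, Dnajc19 and Dnajc30 ratios of its group and the lowest cardiomyocyte marker mean (1.18), and 6 members were called without it.

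Genes of the respiratory chain moved in the same direction as the mitochondrial chaperones. With aldosterone, 11 of 23 were called lower in MR-Cardio hearts and 0 higher, with a median difference of -0.35, and without treatment 5 were lower and 0 higher, with a median of -0.18. The called share was 47.8% with aldosterone and 21.7% untreated, beside 25.1% and 13.6% of all named genes. The mean ratio of the respiratory chain genes per mouse ran from 0.49 to 1.32 in MR-Cardio mice with aldosterone, against 1.33 to 1.58 in Ctrl mice with aldosterone. Whether the chaperone difference goes beyond a difference in mitochondrial content was not tested. Of 10 mitochondrial protease and import genes, 4 were called lower with aldosterone: Clpx, the unfoldase of the matrix ClpXP protease (-0.74 ± 0.15, adjusted p = 0.00128), Afg3l2, a subunit of the inner-membrane AAA protease, and the import subunits Timm44 and Timm23. Untreated, Afg3l2 alone was called (-0.44 ± 0.11, adjusted p = 0.00930). The called share of these 10 genes was 40% with aldosterone and 10% untreated. Grpel1 and Grpel2, the exchange factors of mitochondrial HSP70, were both called lower with aldosterone, at -0.44 ± 0.13 and -0.66 ± 0.13. Of 7 genes of the same families under other symbols, 1 (14.3%) was called in each state: Hscb, a mitochondrial J-domain protein of iron-sulfur cluster assembly, was lower at -0.33 ± 0.09 untreated and -0.74 ± 0.09 with aldosterone. Trap1, the mitochondrial HSP90, was not called, at -0.20 ± 0.09 (adjusted p = 0.126) and -0.22 ± 0.09 (adjusted p = 0.0715).

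In the cytosol, the HSP110 gene Hsph1, an exchange factor of HSP70, had the most negative differences of that compartment. Without treatment its ratio had a lowest value of -0.55, a median of -0.29 and a highest of 0.07 in MR-Cardio mice, against 0.77, 0.09, 1.18, 0.20 and 0.00 in Ctrl mice. The groups overlapped only through the highest MR-Cardio mouse and the lowest Ctrl mouse, and the Ctrl mice were widely spread. The difference was -0.72 ± 0.21, 1.65-fold lower in MR-Cardio, with an adjusted p of 0.0254. That call was lost without Ctrl mouse 1, Ctrl mouse 3 or MR-Cardio mouse 7 (adjusted p from 0.0527 to 0.0911) with the sample number as a block (0.0955) and without the arrays of low offset (0.153). With aldosterone the ratio had a lowest value of -1.09, a median of -0.68 and a highest of -0.05 in MR-Cardio mice, against 0.10, 0.34, 0.82, -0.05 and 0.36 in Ctrl mice. The groups met at -0.05, and the difference was -0.97 ± 0.22, 1.95-fold lower in MR-Cardio, with an adjusted p of 0.00241. Both Hsph1 probes were called in both comparisons. The other HSP110 genes, Hspa4 and Hspa4l, were not called. Taken alone, 1 of the 3 Hspa4 probes was called in each comparison. The Hspa4 probe differences ran from -0.03 to 0.32 untreated and from 0.0035 to 0.31 with aldosterone.

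The constitutive HSP70 gene Hspa8 and its J-domain partner Dnaja1 were called lower in untreated MR-Cardio hearts. Dnaja1 had a lowest ratio of -0.14, a median of 0.34 and a highest of 0.59 in MR-Cardio mice, against 1.09, 0.55, 1.39, 0.63 and 0.62 in Ctrl mice. The highest MR-Cardio mouse lay above the lowest Ctrl mouse, and Ctrl mice 1 and 3 stood above the other Ctrl mice. The difference was -0.53 ± 0.15 with an adjusted p of 0.0206, which became 0.0648 or 0.0759 without Ctrl mouse 1 or 3, 0.0688 with only the compared groups and 0.0657 without the arrays of low offset. Of the 2 Dnaja1 probes, 1 was called. Hspa8 differed by -0.27 ± 0.08, with an adjusted p of 0.0335, with 1 of its 3 probes called, and the call was lost without any of 7 of the 12 mice (0.0575 to 0.0817) and with the most variable probe (0.124). With aldosterone neither gene was called, at -0.36 ± 0.15 for Dnaja1 and -0.21 ± 0.08 for Hspa8. Taken alone, 1 of the 2 Dnaja1 probes and 1 of the 3 Hspa8 probes were called there too.

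Without Ctrl mouse 3, 7 members were called untreated, 2 higher and 5 lower, and 11.03% of all named genes were called. The 5 calls lost were Hsph1, Dnaja1, Hspa8, Dnajc22 and Hsp90b1. Hspa1a, named after its values were seen, the stress-inducible HSP70, had ratios of 2.21, 1.22, 2.61, 0.82 and 1.31 in untreated Ctrl mice, and its lowest, median and highest were 0.50, 0.98 and 1.71 in untreated MR-Cardio mice. Its difference of -0.61 ± 0.33 was not called, and with aldosterone it was 0.56 ± 0.34, also not called. Among untreated Ctrl mice the SD was 0.75 for Hspa1a, 0.63 for Hsp90aa1 and 0.51 for Hsph1, beside a median SD of 0.19 over the 69 members. Hsp90aa1, the inducible cytosolic HSP90, did not differ by a stable sign untreated (0.00 ± 0.21) and was not called with aldosterone (0.45 ± 0.22).

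Dnaja2 and Dnajb6 were called lower in the aldosterone comparison, and neither was called untreated or in the test of the interaction. Dnaja2, another partner of HSP70, had a lowest ratio of 0.84, a median of 0.91 and a highest of 1.12 in MR-Cardio mice, against 1.29, 1.68, 1.16, 1.47 and 1.18 in Ctrl mice, with no overlap. The difference was -0.42 ± 0.10 with an adjusted p of 0.00422. Dnajb6, which keeps aggregation-prone proteins soluble, differed by -0.22 ± 0.07 with an adjusted p of 0.0237, and 1 of its 4 probes was called on its own. The Dnajb6 call was lost without any of 4 of the 11 mice (adjusted p from 0.0512 to 0.0760), after centring the arrays on their medians (0.0565), after quantile normalization (0.0816), with only the compared groups (0.05003) and without the arrays of low offset (0.133).

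The cytosolic members called higher in MR-Cardio hearts were the small heat shock protein gene Hspb7 and the HSP40 gene Dnajb4 in both states, and 4 others in the aldosterone comparison alone. Hspb7 encodes a small heat shock protein of heart and skeletal muscle that binds the actin cross-linker filamin C. Without treatment its ratio had a lowest value of 2.80, a median of 3.12 and a highest of 3.64 in MR-Cardio mice, against 2.35, 2.11, 2.94, 2.57 and 2.10 in Ctrl mice. The ranges overlapped only through Ctrl mouse 3, and the difference was 0.70 ± 0.17, 1.62-fold, with an adjusted p of 0.0106, which became 0.0689 without the arrays of low offset. With aldosterone the lowest, median and highest values were 2.84, 3.31 and 3.53 in MR-Cardio mice, against 2.04, 2.29, 2.83, 2.36 and 2.84 in Ctrl mice. The groups met at 2.84, with a difference of 0.79 ± 0.18, 1.73-fold, and an adjusted p of 0.00275. The other 6 small heat shock protein members, Hspb1, Hspb2, Hspb3, Hspb6, Hspb8 and Hspb9, were not called in any comparison. Cryab, a small heat shock protein under another symbol, is not a member. It had lower point values in MR-Cardio hearts, at -0.19 ± 0.10 untreated (adjusted p = 0.216) and -0.26 ± 0.10 with aldosterone (adjusted p = 0.0706), and was not called.

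Dnajb4 encodes a J-domain partner of cytosolic HSP70. With aldosterone its ratio had a lowest value of 2.50, a median of 2.62 and a highest of 3.19 in MR-Cardio mice, against 2.18, 2.02, 2.01, 2.10 and 1.74 in Ctrl mice. The groups did not overlap, and the difference was 0.70 ± 0.12, 1.63-fold, with an adjusted p of 0.000323. Without treatment the values ran from 2.18 over a median of 2.50 to 2.84 in MR-Cardio mice, against 2.10, 2.16, 2.30, 1.80 and 2.00 in Ctrl mice, and the groups overlapped. That difference was 0.41 ± 0.12 with an adjusted p of 0.0259, which became 0.0903 after scaling by the spike-in slope, 0.174 without the arrays of low offset and 0.0518 to 0.0864 without Ctrl mouse 4 or 5 or MR-Cardio mouse 4 or 5.

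**Figure D3:**
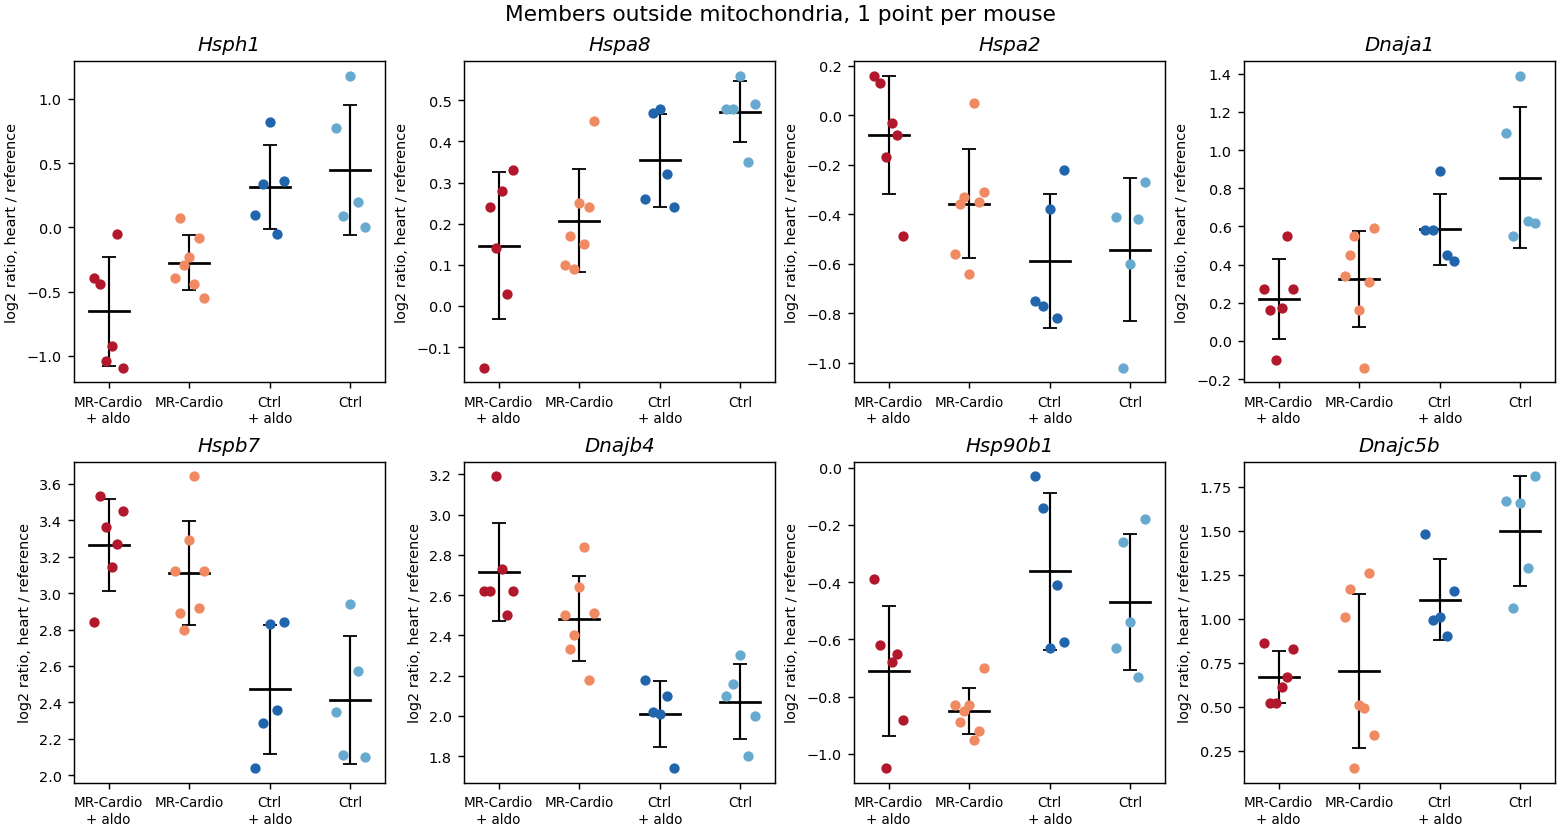
Log2 ratio of heart over reference for 8 members outside mitochondria, 1 point per mouse, with the group mean and SD as bars, and the same group order as for the mitochondrial members. Hsph1 lies lower and Hspb7 and Dnajb4 lie higher in MR-Cardio mice, and Hsph1 and Dnaja1 are widely spread among untreated Ctrl mice.

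With aldosterone, 4 more cytosolic members were called higher in MR-Cardio hearts. Hspa2 and Hspa1l are HSP70 genes known mainly from testis. Hspa2 had a lowest ratio of -0.49, a median of -0.05 and a highest of 0.16 in MR-Cardio mice, against -0.75, -0.77, -0.38, -0.82 and -0.22 in Ctrl mice, and only MR-Cardio mouse 6 lay within the Ctrl range. Its difference was 0.51 ± 0.15 with an adjusted p of 0.0157. Hspa1l had a lowest ratio of 4.98, a median of 5.28 and a highest of 6.07 in MR-Cardio mice, against 3.32, 3.78, 4.97, 3.97 and 4.80 in Ctrl mice, with no overlap by a margin of 0.01. The difference of 1.27 ± 0.39, 2.41-fold, had an adjusted p of 0.0215. It was not called after quantile normalization (0.66, adjusted p = 0.262), after scaling by the spike-in slope (adjusted p = 0.0573) or without Ctrl mouse 1 or 2 of the aldosterone group (0.0551 to 0.0679). Hspa1l was read by 1 probe, and its SD of 1.10 in untreated Ctrl mice was the highest of the 69 members there. Its ratios lay far above the cardiomyocyte marker mean, which reached 2.22 in Ctrl mice with aldosterone. The signal of the reference channel, which contains heart, was not examined.

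Dnajb13 and Dnajb2 were the remaining pair. Dnajb13, a J-domain protein of sperm flagella and cilia, differed by 0.97 ± 0.33 with an adjusted p of 0.0360, and the call was lost without any of 5 of the 11 mice (0.0582 to 0.112), with only the compared groups (0.0925) and without the arrays of low offset (0.0710). Its highest MR-Cardio value, 0.54 in mouse 5, stood apart from -0.34 to -0.23 in the others, and Ctrl mouse 2 at 0.43 stood apart from -1.98 to -1.07 in the other 4. Dnajb2, a J-domain protein that brings clients to the proteasome, differed by 0.30 ± 0.10 with an adjusted p of 0.0381, and the call was lost without any of 8 of the 11 mice (0.0525 to 0.0992), after scaling by the spike-in slope (0.0965), with only the compared groups (0.0962), with the sample number as a block (0.101) and without the arrays of low offset (0.0833). Untreated, the mean of its 2 probes was not called. The probe differences there were 0.25 and 0.29, with 1 probe called, and all 7 MR-Cardio mice lay above all Ctrl mice. With aldosterone, 4 MR-Cardio mice lay above all Ctrl mice.

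Of the ER members, Hsp90b1 (GRP94), the HSP90 of the ER, was called lower in both states. Without treatment its ratio had a lowest value of -0.95, a median of -0.85 and a highest of -0.70 in MR-Cardio mice, against -0.63, -0.26, -0.54, -0.73 and -0.18 in Ctrl mice. The groups overlapped through Ctrl mouse 4 alone, and the difference was -0.38 ± 0.12 with an adjusted p of 0.0398. With aldosterone it was -0.35 ± 0.13 with an adjusted p of 0.0451. Both calls were near the threshold: they were lost without any of 9 of the 12 mice untreated (0.0502 to 0.112) and 8 of the 11 with aldosterone (0.0521 to 0.138), after centring (0.0555 and 0.0640), after scaling by the spike-in slope (0.0577 and 0.0623), with the sample number as a block (0.0572 and 0.0639) and without the arrays of low offset (0.132 and 0.155). Array weights ended the untreated call (0.0626) and fitting only the compared groups the aldosterone call (0.110). The Hsp90b1 window of the RefSeq table (GRCm38.p6, chr10:86705395-86705694, minus strand) is shown because it holds 2 matches to the ER stress element, which ATF6 binds. Capitals mark them, searched as CCAAT and CCACG with 9 free bases between them on both strands.
Hsp90b1: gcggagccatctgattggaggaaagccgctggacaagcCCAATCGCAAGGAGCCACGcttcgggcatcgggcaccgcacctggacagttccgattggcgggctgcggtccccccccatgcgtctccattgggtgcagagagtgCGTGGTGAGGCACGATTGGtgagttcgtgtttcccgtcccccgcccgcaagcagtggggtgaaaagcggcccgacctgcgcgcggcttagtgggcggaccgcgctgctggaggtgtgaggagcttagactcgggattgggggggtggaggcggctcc
The element was found in 39 of all windows (0.119%) and in windows of 3 members, Hspa5, Hsp90b1 and Dnajc3.

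Neither of the other members with this element was called. Hspa5, which encodes the ER HSP70 BiP, had differences of -0.04 ± 0.07 untreated and -0.12 ± 0.08 with aldosterone. Dnajc3, a J-domain partner of BiP, had 0.13 ± 0.09 and 0.10 ± 0.10. Whether these genes differ from Hsp90b1 in their response was not tested. Dnajc18, a J-domain protein of the ER membrane, was called higher with aldosterone (0.47 ± 0.14, adjusted p = 0.0140). Hspa13 and Dnajb11 stand for the remaining HSP70 and DNAJB genes of the ER: they differed by 0.11 ± 0.14 and -0.32 ± 0.20 untreated, and neither was called. Of 16 other ER chaperone and unfolded protein response genes, 1 was called higher and 4 lower untreated, with calnexin (Canx, -0.52 ± 0.10, adjusted p = 0.00218), calreticulin (Calr) and the disulfide isomerase Pdia6 among the lower. With aldosterone 2 were higher and 2 lower, with Canx again lower (-0.72 ± 0.11) and the kinase Eif2ak3 (PERK) higher in both states. The called share of this list was 31.25% untreated and 25% with aldosterone, beside 13.6% and 25.1% of all named genes.

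The remaining calls fell on J-domain genes of the DNAJC class and on 1 atypical HSP70. Dnajc5b, a cysteine string protein of vesicles, was lower in untreated MR-Cardio hearts, at a lowest of 0.15, a median of 0.51 and a highest of 1.26, against 1.67, 1.06, 1.66, 1.29 and 1.81 in Ctrl mice. The groups overlapped, and mice 1, 2 and 6, the 3 with high Hspd1, were also the 3 highest MR-Cardio mice here. The difference of -0.80 ± 0.18 had an adjusted p of 0.00471, with 1 of 2 probes called, and it became 0.111 without the arrays of low offset. With aldosterone the Dnajc5b difference was -0.44 ± 0.18 and was not called, with 0 of 2 probes called. All 6 MR-Cardio mice lay below all Ctrl mice there.

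Dnajc12, whose human counterpart assists the aromatic amino acid hydroxylases, was called lower in both states, at -0.36 ± 0.08 untreated (adjusted p = 0.00442) and -0.31 ± 0.08 with aldosterone (adjusted p = 0.00795), and its groups did not overlap in either state. The untreated adjusted p became 0.0860 without the arrays of low offset. Dnajc22 was also called lower in both, at -0.32 ± 0.10 (adjusted p = 0.0435) and -0.46 ± 0.11 (adjusted p = 0.00293). Dnajc22 ratios lay between -5.17 and -4.19 in all mice, far below the reference, and the calls were lost after scaling by the spike-in slope, with differences of -0.09 untreated and -0.25 with aldosterone, and after quantile normalization, with -0.00063 and -0.16. The untreated Dnajc22 call was also lost without any of 9 of the 12 mice (0.0554 to 0.146), after centring (0.0564), with trend and robust eBayes (0.0598), with only the compared groups (0.107) and without the arrays of low offset (0.326).

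Hspa12a, an atypical HSP70, was called lower with aldosterone, with a lowest ratio of -1.81, a median of -1.01 and a highest of -0.75 in MR-Cardio mice, against -0.27, -0.34, -0.54, -0.54 and -0.67 in Ctrl mice. The groups did not overlap, and the difference was -0.62 ± 0.18 with an adjusted p of 0.0147. Dnajc28 was lower too, with a lowest ratio of 1.28, a median of 2.01 and a highest of 2.49 in MR-Cardio mice, against 3.12, 2.85, 2.50, 3.09 and 2.52 in Ctrl mice. The groups again did not overlap, and the difference was -0.86 ± 0.23, 1.82-fold lower in MR-Cardio, with an adjusted p of 0.00791. Neither gene was called untreated.

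Dnajc27, a Rab-like GTPase with a J domain, was higher with aldosterone, with a lowest ratio of 0.99, a median of 1.67 and a highest of 1.89 in MR-Cardio mice, against 0.51, 0.97, 0.81, 0.73 and 0.67 in Ctrl mice. The groups did not overlap, and the difference was 0.80 ± 0.20, 1.74-fold, with an adjusted p of 0.00621. Dnajc6 (auxilin, which uncoats clathrin vesicles), Dnajc9 (a histone chaperone) and Dnajc4 were called higher at 0.50 ± 0.16, 0.26 ± 0.08 and 0.21 ± 0.07, with adjusted p-values of 0.0247, 0.0194 and 0.0416. The Dnajc6 call was lost without any of 4 of the 11 mice (0.0567 to 0.0628), the Dnajc9 call without Ctrl mouse 3 or 5 of the aldosterone group (0.0501 to 0.0617) or the arrays of low offset (0.0667), and the Dnajc4 call without any of 6 mice (0.0553 to 0.126). Dnajc4 was also not called after centring (0.0507), after scaling by the slope (0.0775), with the sample number as a block (0.105), with only the compared groups (0.111) or without the arrays of low offset (0.109).

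The untreated and the aldosterone comparisons share no mice, but they come from 1 fit with a pooled spread, and in both the spike-in slope differs between the genotypes. Of the 12 members called untreated, 9 were also called with aldosterone in the same direction, which is 75% of the untreated and 33.3% of the aldosterone calls. For all named genes the overlap was 79.3% of the untreated and 43.0% of the aldosterone calls. All 12 untreated calls had the same sign with aldosterone, as did 2945 of the 2978 untreated calls over all named genes. The 3 members without a second call were Dnaja1, Hspa8 and Dnajc5b. Groups that did not overlap were found for 3 members (4.35%) untreated and 17 (24.6%) with aldosterone, beside 6.97% and 16.1% of all named genes.

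**Figure D4:**
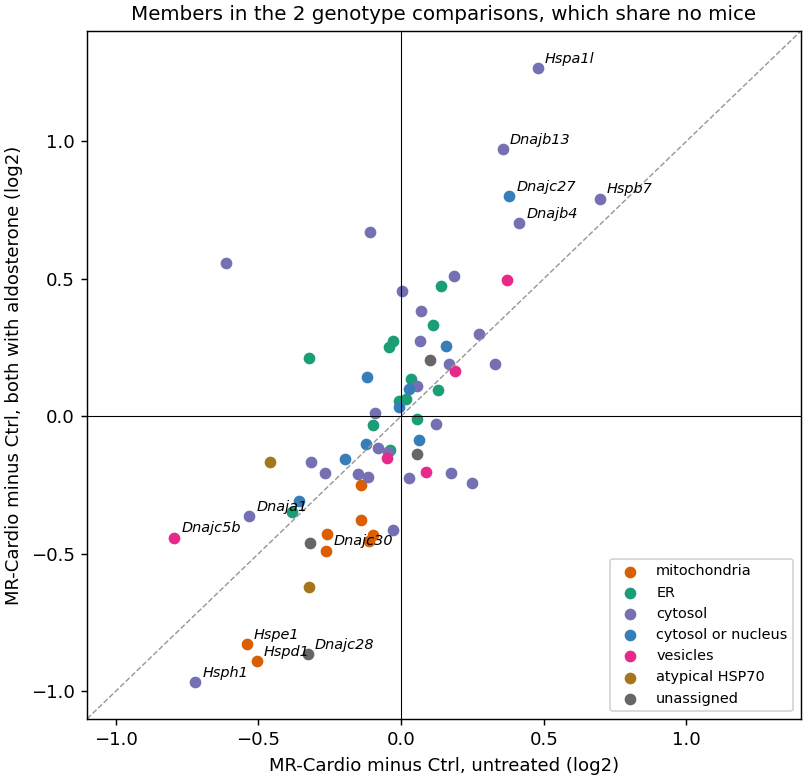
Log2 difference of MR-Cardio minus Ctrl for the 69 members without treatment (horizontal axis) and with aldosterone in both genotypes (vertical axis), coloured by compartment, with the line of equality dashed. Hspd1 lies at -0.51 and -0.89, Hspe1 at -0.54 and -0.83, and the 8 mitochondrial members lie below the line.

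Aldosterone within a genotype gave no calls among the members. In MR-Cardio hearts limma called 314 of all named genes (1.43%, with 0.95% higher and 0.484% lower) and 0 members, and 7 members and 3109 genes had an unadjusted p below 0.05. With only the compared groups in the fit, 0 genes were called. With 1 mouse left out the count over all genes ran from 138 to 697, and it moved by over 1.5 times without untreated MR-Cardio mouse 2 (146), 5 (697) or 6 (154) or aldosterone-treated MR-Cardio mouse 1 (199), 2 (152) or 4 (138). With the sample number as a block it was 154. With genes of low mean ratio left out it was 94, of which 40.4% were higher. Hspd1 differed by -0.35 ± 0.12 (adjusted p = 0.153), Hspe1 by -0.23 ± 0.10 (adjusted p = 0.269) and Dnajc30 by -0.22 ± 0.07 (adjusted p = 0.121). The 8 mitochondrial members all had lower point values with aldosterone, from -0.35 to -0.10, with a median of -0.18 beside -0.02 over all named genes. In Ctrl hearts limma called 0 members and 0 of all named genes (8 with only the compared groups), with 2 members and 1036 genes at an unadjusted p below 0.05. The 8 mitochondrial members had point values of 0.0046 to 0.17 there, with Hspd1 at 0.03 ± 0.14 (95% interval -0.25 to 0.32) and Hspe1 at 0.05 ± 0.11 (95% interval -0.18 to 0.29).

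The test of the difference between the genotypes in the aldosterone effect called 0 members and 0 of all named genes, with 6 members and 1197 genes at an unadjusted p below 0.05. The interaction was -0.38 ± 0.18 for Hspd1 (adjusted p = 0.901) and -0.29 ± 0.15 for Hspe1 (adjusted p = 0.922). It was 1.17 ± 0.47 for Hspa1a (adjusted p = 0.876). The aldosterone effects and the genotype differences use the same 4 groups, so their values are not independent of each other.

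**Figure D5:**
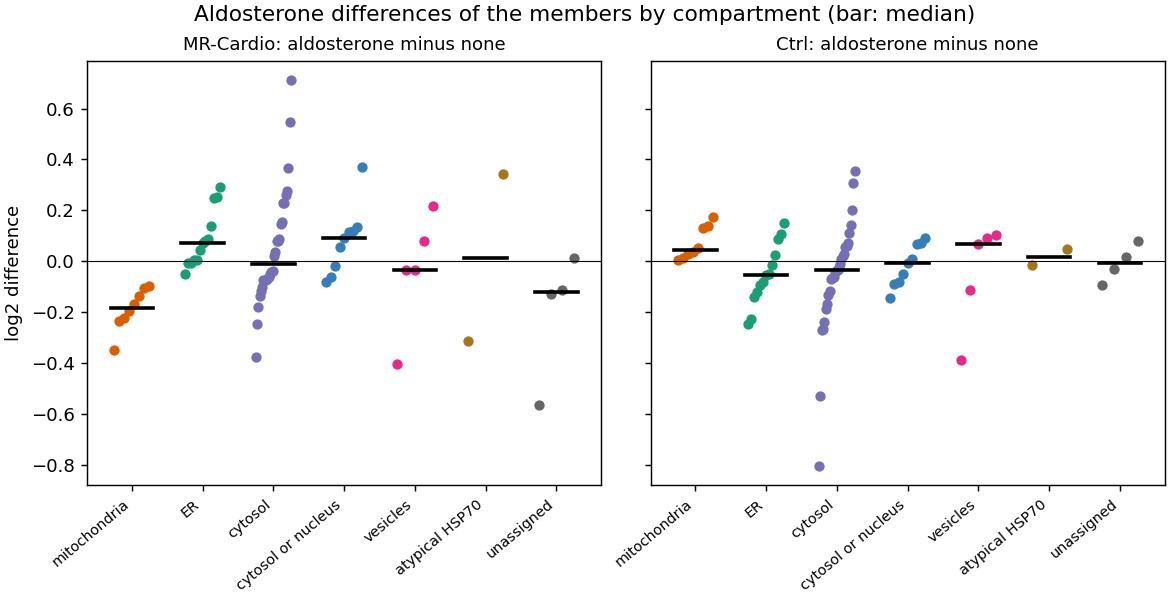
Log2 difference of aldosterone minus no treatment for the members in MR-Cardio hearts (left) and Ctrl hearts (right), 1 point per member, by compartment, with the median as a bar. The mitochondrial members lie between -0.35 and -0.10 in MR-Cardio and between 0.0046 and 0.17 in Ctrl hearts, and no point was called.

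Partners of these chaperones that bear other names were described from lists. Their called shares stand beside 13.6% of all named genes untreated and 25.1% with aldosterone. Of the 8 subunits of the cytosolic chaperonin CCT, which folds actin and tubulin, 4 (50%) were called lower in MR-Cardio hearts in each state, Tcp1, Cct2, Cct4 and Cct6a, and 0 higher, with medians of -0.21 untreated and -0.16 with aldosterone. The strongest by p untreated was Cct2, at -0.36 ± 0.07 (adjusted p = 0.00109), and Cct6a had -0.48 ± 0.13. The mean CCT ratio per mouse lay between 0.19 and 0.32 in untreated MR-Cardio mice, against 0.36 to 0.69 in untreated Ctrl mice, without overlap. Of 6 prefoldin subunits, which hand clients to CCT, 0 were called untreated and 2 (33.3%), Pfdn5 and Vbp1, were called higher with aldosterone.

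Among 14 HSP90 co-chaperones, calls went both ways, with a called share of 28.6% untreated and 35.7% with aldosterone. The immunophilins Fkbp5 and Fkbp4, which bind HSP90 in steroid receptor complexes, differed by 3.1 ± 0.25 and -0.65 ± 0.16 untreated and by 3.31 ± 0.26 and -1.17 ± 0.17 with aldosterone. Itgb1bp2 (melusin), a muscle co-chaperone, was called higher and Unc45b, the myosin chaperone, lower untreated, at 0.34 ± 0.08 and -0.40 ± 0.13. With aldosterone 2 of the 14 were called higher and 3 lower, with Unc45b at -0.59 ± 0.13 and the cyclophilin Ppid at -0.41 ± 0.09 among the lower. Of 12 HSP70 co-chaperones, Stub1, a ubiquitin ligase, was called higher in both states, at 0.22 ± 0.06 and 0.27 ± 0.06, and 1 was called lower untreated and 3 with aldosterone. The called share of these 12 was 16.7% untreated and 33.3% with aldosterone. Of the heat shock factors, 2 were measured: 0 were called untreated, and Hsf2 was called higher with aldosterone (0.26 ± 0.07, adjusted p = 0.0145).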

How the data were processed

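For each probe and 2-colour Agilent array the authors deposited 1 log2 ratio, with heart RNA in Cy5 and the pool in Cy3 on every array per the labels. Feature Extraction 10.7.3.1 is the tool that the submitters' processing notes name. The base and sign of the deposited log2 values were inferred from spike-in probes and tissue markers. How the authors corrected background and normalized is not stated in the sources used, no signal over background was used, and the number of arrays limits the precision. Array medians ran from -0.04 to 0.12.

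After removal of 56 control probes, 30625 of 39429 probes had a gene symbol, and probes of a gene were averaged to 21892 genes. Differences were fitted with limma 3.58.1 in R 4.3.3 (lmFit and eBayes) on all 23 arrays with 1 mean per group, two-sided, with Benjamini-Hochberg adjustment over all named genes and a threshold of 0.05. The step was tested on simulated data for the untreated genotype comparison, with 200 genes changed. It recovered 39.5% of log2 changes of 0.5, 78.5% of changes of 1 and 96.5% of changes of 2. The false calls numbered 2, 2 and 10. A gene that was not called can therefore still differ by about 0.5, and less often by 1 or 2. The simulation changed fewer genes than the 2978 called untreated in the data, so these shares may differ there. A fold is 2 raised to the log2 difference. Correlations used scipy 1.17.1. The alternatives were centring, quantile normalization, the spike-in slope, the most variable probe, trend and robust eBayes, array quality weights, a filter on low ratios, the sample number as a block, the compared groups alone and each mouse left out. Members with at least 1 probe called on its own were also counted. Leaving out arrays with a spike-in offset below -0.3 and correlations over the 10 Ctrl mice were chosen after the data were seen. Same-numbered mice did not deviate together (median correlation -0.01 over 31 pairs), and no label pairs them.

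The members, the partner lists and the markers were chosen with earlier results of these data known. Genes named are Hspd1, Hspe1, each member called in any comparison, the member of smallest untreated p in each class by compartment with no call, and up to 3 called genes per partner list by smallest p. Other genes are named as chosen after their values were seen or because a result turns on them. Promoter sequences and their coordinates are from RefSeq (GRCm38.p6), and no source used names a build for the array probes.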

Additional observations from a re-analysis of the deposited data

Results flagged for a closer look

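For the 33 named members, each group of mice was checked for a highest or lowest mouse set apart from the rest by Dixon's criterion, 132 checks in all. This flagged 8 values, some of them from the same mouse, and chance flags about 5% of checks. The checks use the same mice for every gene and are not independent. MR-Cardio mouse 1 with aldosterone accounts for 4 of them, with lower ratios than the rest of its group in Hspa9 (0.41, others 0.83 to 1.09), Dnajc15 (0.68, others 1.04 to 1.22) and Hspa12a (-1.81, others -1.1 to -0.75) and a higher one in Hspa13 (0.069, others -0.29 to -0.18). This mouse also had the lowest cardiomyocyte marker mean (1.18) and respiratory chain mean (0.49) of its group and the highest fibroblast marker mean (3.42), and their part in its values was not tested. In the same group, Dnajb13 was set apart in mouse 5 (0.54, others -0.34 to -0.23) and Dnajb4 in mouse 3 (3.19, others 2.50 to 2.73). Hspa12a was set apart in untreated MR-Cardio mouse 5 (-1.21, others -0.83 to -0.60), and Dnajc19 in untreated Ctrl mouse 3 (0.48, others 0.75 to 0.82).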

How the results depend on the processing

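Of 39 calls of a member in a genotype comparison, 16 held under each of the 20 to 22 alternatives run for them. Hspe1 was the only untreated call among these, and the rest were calls with aldosterone. Of the 39 calls, 0 changed direction, and 18 were lost when some single mouse was left out. Calls lost under the other settings numbered 16 without the arrays of low spike-in offset, 10 with only the compared groups, 8 under the spike-in slope, 6 after centring, 5 after quantile normalization, 5 with the replicate block, 2 with the most variable probe, and 1 each under trend and robust eBayes, array weights and the filter on low ratios. The untreated count of 12 ranged from 7 to 12 with 1 mouse left out, lowest without Ctrl mouse 3, where 11.03% of all named genes were called, and was 2, Hspe1 and Hspa8, without the arrays of low offset, where fewer samples were fitted and 4.96% of all named genes were called. The aldosterone count of 27 ranged from 20 to 26 with 1 mouse left out and from 21 to 33 under the other settings. The 33 is an unlike measure, the number of members with at least 1 probe called on its own. The 3 other counts were 0 under all settings. With the sample number as a replicate block, 12 members were called untreated and 30 with aldosterone, beside 10.7% and 24.4% of all named genes, and the 3 other counts stayed at 0.

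Signs turned only for values near 0 that were not called, and the cause was not tested. The untreated Hsp90aa1 difference was -0.011 after quantile normalization, -0.15 without the arrays of low offset, and -0.14 to 0.24 with 1 mouse left out, below 0 without Ctrl mouse 2, 4 or 5 or MR-Cardio mouse 3, 4, 5 or 7. Hspa13 untreated was -0.0083 without Ctrl mouse 2 and up to 0.20 with other single mice left out. Hspd1 under aldosterone in Ctrl hearts ran from -0.0064 to 0.069 with 1 mouse left out, below 0 without untreated Ctrl mouse 5 (-0.00094) or Ctrl mouse 2 of the aldosterone group. The Hspd1 and Hspe1 correlation in MR-Cardio mice with aldosterone was 0.027 with the most variable probe. The median over the members with aldosterone was -0.12 after scaling by the spike-in slope and -0.08 without the arrays of low offset. With genes of low mean ratio left out, 94 of 16419 genes were called for aldosterone in MR-Cardio hearts, 40.4% of them higher.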

Other observations

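Hspd1 fell into separate clusters over the 23 mice, so no correlation over all mice is given. The planned correlations within untreated MR-Cardio mice, which Hspd1 and Hspe1 split in the same way, were not computed. Within groups, 6 relations were computed, for Hspd1 with Hspe1, Hspa9 and the mean of the respiratory chain genes, in the 6 MR-Cardio mice with aldosterone and in the 10 Ctrl mice of both treatments. In the 10 Ctrl mice, Hspd1 and Hspe1 rose together across mice, with Pearson's r of 0.81 (permutation p = 0.00554, adjusted 0.0332) and Spearman's rho of 0.72 (permutation p = 0.0240, adjusted 0.144). Without the 2 mice farthest from the median of Hspd1, r was 0.60. In the 6 MR-Cardio mice with aldosterone r was -0.13 (exact permutation p = 0.819, adjusted 0.819), with rho at 0.14. In that group r was 0.75 with Hspa9 (exact permutation p = 0.158, adjusted 0.450, rho 0.31) and 0.77 with the respiratory chain mean (exact permutation p = 0.225, adjusted 0.450, rho 0.37). Mouse 1 had the lowest value of all 3 measures. Without the 2 mice farthest from the median of Hspd1, r was 0.74 and 0.79 over the 4 mice left. After centring the arrays r was 0.76 and 0.75 over the 6 mice. With both centring and 2 mice left out in the same way, r was 0.07 and -0.29 over 4 mice. In the Ctrl mice r was 0.22 with Hspa9 (permutation p = 0.523) and -0.30 with the respiratory chain mean (permutation p = 0.399).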
